A study of Danio rerio with 6 samples.

Results

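The transcripts described here are 8 genes of the glucocorticoid stress axis, measured in single whole zebrafish embryos. They were found as the rows of the deposited count table whose gene symbol is crhb, mc2r, star, hsd11b2, nr3c1, fkbp5, tsc22d3 or klf9. Each symbol matched 1 row, so 8 of the 32057 genes in the table are members. The tested embryos are labelled 3etv, which the series title describes as triple mutants of the Pea3 group, ETS-family transcription factors downstream of fibroblast growth factor signalling. They were compared with embryos labelled WT. Each group held 3 embryos at 30 hours post fertilisation (hpf), titled MUT301 to MUT303 and WLD301 to WLD303, and each embryo gave a separate poly-A selected library. Neither the mutated genes nor their alleles are named in the labels, which also give no clutch, parents, strain or batch. An effect of family or batch that followed genotype cannot be told apart from genotype, and p-values measure the spread between these embryos.

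The stress axis runs from brain to body. Corticotropin-releasing hormone (CRH) from the hypothalamus makes corticotropes of the pituitary release ACTH, which binds the melanocortin 2 receptor on the interrenal gland, the fish counterpart of the adrenal cortex. The gland makes cortisol from cholesterol, and cortisol acts in most tissues through the glucocorticoid receptor, a nuclear receptor that waits in a chaperone complex and switches genes on or off once it binds the hormone. At the stage sampled, hypothalamus, pituitary and interrenal gland are still forming, and the embryo also carries maternal cortisol from the yolk.

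Libraries held from 17570505 to 19600706 counts in genes in 3etv embryos and from 21516892 to 25512862 in WT embryos, so every 3etv library was shallower than every WT library. In them, 3 counts correspond to between 0.117 and 0.177 CPM (counts scaled to effective library size). As a check of the labels, transcripts of etv4, etv5a and etv5b, all of the Pea3 group, were lower in 3etv embryos, by log2 fold changes of -0.48, -1.01 and -1.34 (edgeR quasi-likelihood test, adjusted p = 0.00923, 1.82e-05 and 1.27e-06), and etv1 did not pass the test (adjusted p = 0.191). Each kept transcripts in the mutants.

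Of the 8 members, 5 passed the low-count filter (nr3c1, fkbp5, tsc22d3, hsd11b2 and star) and 3 did not (crhb, mc2r and klf9). A gene is termed called where its Benjamini-Hochberg adjusted p, over all 19889 genes tested, is under 0.05. None of the 5 was called by edgeR's quasi-likelihood test, by the DESeq2 Wald test or by limma-voom, and 1 of the 5, nr3c1, had an unadjusted p under 0.05 by each tool. Across the table, 26.0% of tested genes were called, 12.6% higher and 13.5% lower in 3etv embryos, and 39.1% had an unadjusted p under 0.05. Counts of called genes on each list below are to be set against the 26.0% called over all tested genes. The lists were chosen with earlier results of these data known, so their shares are descriptions only. The log2 fold changes of the 5 ran from -0.25 to 0.40 with a median of -0.10, against a median of -0.01 over all tested genes. The ranges of the groups did not overlap for 1 of the 5, again nr3c1, while 42.9% of all tested genes had no overlap. These were whole embryos, so fewer cells of a type and less RNA per cell cannot be told apart in any value below.

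**Figure D1:**
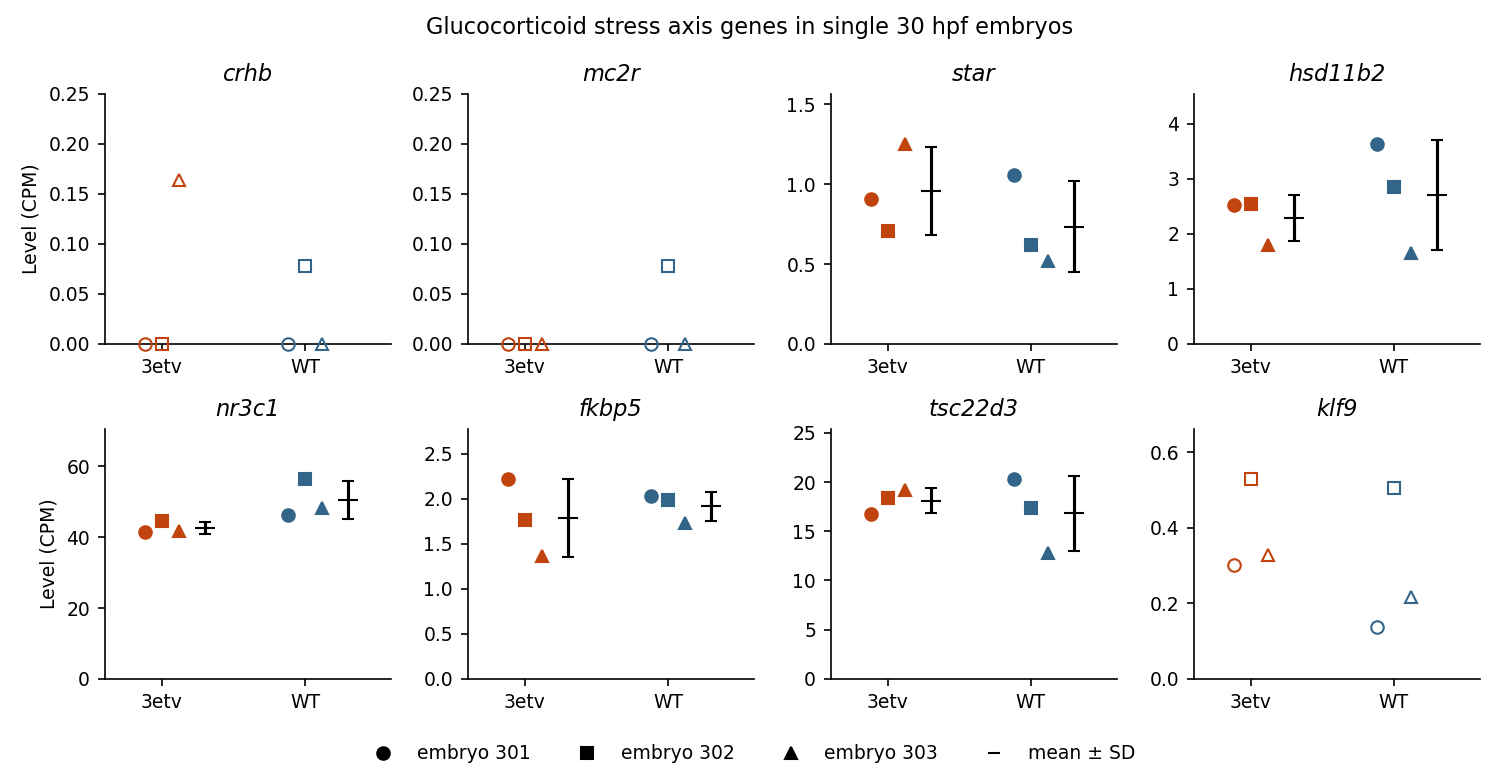
Level of each member in CPM (linear axis, from 0) in each of 3 3etv embryos and 3 WT embryos; marker shapes give the embryo number, and black bars give mean ± SD of 3 embryos. Open symbols without bars are the 3 members below the low-count filter. The groups overlap in every panel except nr3c1, where the 3 3etv embryos lie between 41.6 and 44.5 CPM and the WT embryos between 46.4 and 56.5 CPM.

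The first step of the axis was barely sampled. The gene crhb (ENSDARG00000027657) encodes a CRH peptide of hypothalamic neurons and had 0, 0 and 3 counts in 3etv embryos MUT301, MUT302 and MUT303, against 0, 2 and 0 counts in WT embryos WLD301, WLD302 and WLD303. Summed over each group this was 0.0544 CPM in 3etv embryos, with an exact Poisson 95% interval from 0.0112 to 0.159, and 0.0283 CPM in WT embryos, from 0.00343 to 0.102. These intervals cover counting error only. A single embryo in each group held all the counts, and no difference was detectable at this depth.

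Around crhb, the list of CRH peptides, receptors and binding protein also took in urp1, which is not of the CRH family. The list held 9 rows, of which 5 were tested and 3 called, 2 higher and 1 lower, with urp1 among the higher ones. That was 60% of those tested, against 26.0% of all tested genes. The peptide genes uts1 (urotensin 1, a CRH-family peptide) and urp1 (a urotensin 2-related peptide) were higher in 3etv embryos. The uts1 transcript averaged 1.91 ± 0.340 CPM in 3etv embryos and 0.826 ± 0.323 CPM in WT embryos (SD, n = 3 each), a log2 fold change of 1.22 ± 0.342 (SE, edgeR adjusted p = 0.0205). For urp1 the log2 fold change was 0.89 ± 0.250 (adjusted p in edgeR = 0.0210). Neither call held in every fit with an embryo left out, and each such fit called fewer genes across the table. Over all alternatives the log2 fold changes stayed above 0, from 0.95 to 1.52 for uts1 and from 0.69 to 1.09 for urp1. The uts1 call was lost without 3etv embryo MUT301 or MUT302 or WT embryo WLD302 or WLD303, with adjusted p from 0.0537 to 0.0738. The urp1 call was lost without 3etv embryo MUT303 or WT embryo WLD302 or WLD303, with adjusted p from 0.0538 to 0.0936.

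A receptor gene gave the widest contrast of that list. One of 2 rows with the symbol crhr2, a CRH receptor (ENSDARG00000092918, named after its values were seen), had 0 counts in every 3etv embryo and 14, 47 and 38 counts in WT embryos WLD301, WLD302 and WLD303. It was at least 8.37-fold lower in 3etv embryos, computed against a floor of 3 counts per library (edgeR adjusted p = 0.000560). The other crhr2 row (ENSDARG00000103704) had 2, 2 and 1 counts in 3etv embryos and 1, 0 and 5 in WT embryos and was not tested. How reads were divided between rows with the same symbol is not given in the sources used here, so both are uncertain. The second CRH peptide gene, crha, had 0, 0 and 2 counts in 3etv embryos and 5, 4 and 4 counts in WT embryos, and it was below the filter. The list's other tested genes, the receptor gene crhr1 and the binding protein gene crhbp, were not called. Their log2 fold changes were -0.63 and 0.75 (edgeR adjusted p = 0.184 and 0.0521), and the groups overlapped for crhr1 but not for crhbp. Both were named after their values were seen.

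Values of hypothalamic neuron markers are given beside these genes. Of 8 markers, 5 were tested, with log2 fold changes from -0.20 to 0.93, and 3 of the 5 were not called. The 2 called higher were otpa and otpb, transcription factors of neuroendocrine hypothalamic neurons. Their log2 fold changes were 0.55 and 0.93 (edgeR adjusted p = 0.00460 and 0.000285). The summed level of the 8 ranged from 108 to 125 CPM in 3etv embryos and from 71.0 to 80.4 CPM in WT embryos. Their part in the values of the CRH list was not tested. Of the 5 tested genes on the corticotrope list, none was called, and their whole-embryo levels are not those of the pituitary alone. Their log2 fold changes ran from -0.55 to 0.13, and the smallest adjusted p was that of pomcb, an ACTH precursor paralog (edgeR adjusted p = 0.279). The hormone gene pomca, which encodes the ACTH precursor, had 4, 6 and 9 counts in 3etv embryos and 3, 8 and 0 in WT embryos. Of 9 pituitary cell markers, 7 matched a row and 3 were tested, with none called. The summed level of the 7 rows was 17.8 to 23.2 CPM in 3etv embryos and 18.0 to 19.4 CPM in WT embryos. Most of it came from pitx3, at 15.9 to 21.4 CPM in 3etv embryos and 16.7 to 17.9 CPM in WT embryos. The marker cga, a subunit of other pituitary hormones, was below the low-count filter and was not tested. No difference between the groups is given for it.

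The ACTH receptor gene mc2r (ENSDARG00000054949) had 0 counts in all 3 3etv embryos and 0, 2 and 0 counts in WT embryos. Both counts came from WT embryo WLD302, the deepest library. The exact Poisson 95% interval reached 0.0669 CPM in 3etv embryos and ran from 0.00343 to 0.102 CPM in WT embryos. The groups were at or under the 3-count floor, so no fold is given.

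Called genes on the list for the interrenal gland went both ways, and whole-embryo counts do not show which tissue the transcripts came from. Of 8 interrenal rows, 4 were tested and 2 called, 1 higher and 1 lower, and 2 were higher without MUT303. The transcript of mrap2a, a melanocortin receptor accessory protein, was at 2.07, 1.41 and 1.80 CPM in 3etv embryos and at 0.874, 0.544 and 0.476 CPM in WT embryos. The groups did not overlap, and the log2 fold change was 1.49 ± 0.341 (SE, edgeR adjusted p = 0.00745). In contrast, wt1a, a transcription factor of the kidney and interrenal primordium, averaged 0.819 ± 0.0608 CPM in 3etv embryos and 2.12 ± 0.557 CPM in WT embryos (SD, n = 3 each), a log2 fold change of -1.37 ± 0.312 (adjusted p in edgeR = 0.00706). The accessory protein gene mrap was below the filter, with 15, 8 and 10 counts in 3etv embryos and 10, 11 and 7 in WT embryos. The lineage factor nr5a1a, which zebrafish need for interrenal development, was not called (log2 fold change 0.26 ± 0.397, edgeR adjusted p = 0.664).

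The gene star (ENSDARG00000006137) encodes the protein that carries cholesterol into mitochondria, where steroid synthesis begins. It was at 0.909, 0.707 and 1.26 CPM in 3etv embryos MUT301, MUT302 and MUT303, against 1.06, 0.622 and 0.519 CPM in WT embryos. WT embryo WLD301 lay above 2 of the 3etv embryos, and the groups overlapped. The means were 0.957 ± 0.277 CPM in 3etv embryos and 0.733 ± 0.286 CPM in WT embryos (SD, n = 3 each), with a log2 fold change of 0.40 ± 0.388 (SE, edgeR adjusted p = 0.485). With 12 to 23 counts per library, the 95% interval of the ratio of 3etv to WT ran from 0.735 to 2.36, a range that includes no change and a change of more than 2-fold.

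Other genes of cortisol synthesis differed where star did not pass the test. Of 14 rows, 9 were tested and 3 called. The transcript of cyp17a1, the 17-hydroxylase on the route to cortisol and sex steroids, fell to 6.21, 4.42 and 5.57 CPM in 3etv embryos, against 9.62, 12.8 and 12.8 CPM in WT embryos. Its log2 fold change was -1.12 ± 0.174 (SE, edgeR adjusted p = 0.000765), and the groups did not overlap. For fdxr, the reductase that feeds electrons to mitochondrial steroid hydroxylases, it was -0.56 ± 0.155 (edgeR adjusted p = 0.0198), and the call was lost without 3etv embryo MUT302 (adjusted p = 0.0779) or WT embryo WLD303 (adjusted p = 0.0635). The third called gene, cyp11c1, which encodes the 11-beta-hydroxylase of the last step to cortisol, rose. It is named after its values were seen, because its counts were below the minimum for named genes. It had 40, 26 and 16 counts in 3etv embryos and 5, 11 and 14 in WT embryos, a log2 fold change of 1.79 ± 0.431 (adjusted p in edgeR = 0.00977).

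The remaining steps of the route gave few counts. The side-chain cleavage gene cyp11a1 was at 0.505, 0.295 and 0.873 CPM in 3etv embryos and at 0.782, 1.48 and 0.735 CPM in WT embryos, overlapping, and it was not called (edgeR adjusted p = 0.185). Its relative cyp11a2 had at most 3 counts in any embryo. The 21-hydroxylase gene cyp21a2 had 13, 17 and 9 counts in 3etv embryos and 5, 9 and 9 in WT embryos and was below the filter. Of 11 interrenal marker symbols, which share mc2r, star, cyp17a1 and others with the lists above, 10 matched a row and 3 were tested. Their summed level ranged from 8.19 to 10.8 CPM in 3etv embryos and from 12.5 to 15.8 CPM in WT embryos, with most of it from cyp17a1. The other 9 rows together had the opposite order, with sums of 3.77 to 4.54 CPM in 3etv embryos and 2.47 to 3.03 CPM in WT embryos, without overlap. That order is for these rows only. The marker symbol without a row was cyp11a1.1, so the cyp11a1 row is in none of these sums. Its mean was 0.558 CPM in 3etv embryos and 0.999 CPM in WT embryos, against the order of the 9. The mean was higher in 3etv embryos for 7 of the 9 and lower for 2, and neither of the 2 that were tested was called. No row of the 10 was at 0 in all 6 libraries. The part of the number of interrenal cells in these values was not tested.

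**Figure D2:**
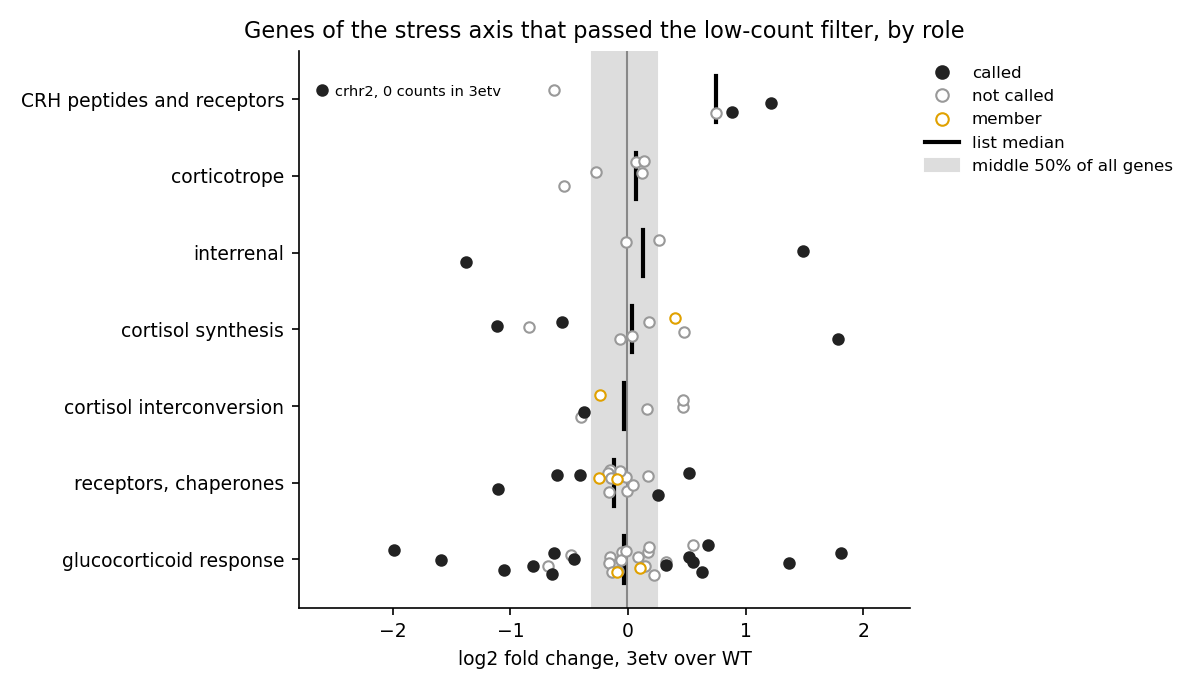
Log2 fold change, 3etv over WT, of each gene that passed the low-count filter in 7 lists ordered along the axis; vertical jitter separates points only. Filled points are called, gold rings are members, black bars are list medians, and the grey band is the middle 50% of all tested genes, from -0.31 to 0.25; one crhr2 row is drawn at the left edge.

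The enzyme gene hsd11b2 (ENSDARG00000001975) encodes the dehydrogenase that turns cortisol into inactive cortisone. It was at 2.52, 2.53 and 1.80 CPM in 3etv embryos MUT301, MUT302 and MUT303, against 3.64, 2.84 and 1.64 CPM in WT embryos. The 3etv values lay inside the WT range. The means were 2.29 ± 0.421 CPM in 3etv embryos and 2.71 ± 1.003 CPM in WT embryos (SD, n = 3 each), a log2 fold change of -0.24 ± 0.295 (SE, edgeR adjusted p = 0.586). The 95% interval of the ratio ran from 0.544 to 1.32. Without WT embryo WLD301, the highest of the 6, the log2 fold change was 0.02, and without WT embryo WLD303 it was -0.50.

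Of 6 tested genes that interconvert or clear cortisol, 1 was called. This was h6pd, which supplies the cofactor for cortisol regeneration, with a log2 fold change of -0.38 ± 0.110 (SE, edgeR adjusted p = 0.0250). Leaving out each embryo in turn lost the call 5 times in 6, with adjusted p up to 0.111 without WT embryo WLD303. The gene hsd20b2, an enzyme of cortisol clearance in zebrafish, was at 3.64, 4.18 and 5.68 CPM in 3etv embryos and 2.67, 4.67 and 2.34 CPM in WT embryos and was not called (edgeR adjusted p = 0.222). Because hsd11b2 is known from kidney and ion-transporting epithelia, markers of those cells are given beside it. Of 9 tested ionocyte markers, 1 was called higher and 3 lower, with a summed level of 76.3 to 82.2 CPM in 3etv embryos and 91.3 to 100.3 CPM in WT embryos; 2 were higher without WLD303. Of 9 tested pronephros markers, 2 were called lower, with sums from 120 to 129 CPM in 3etv embryos and from 128 to 134 CPM in WT embryos; 1 was lower without MUT301, WLD302 or WLD303, and 1 was higher without MUT302 or MUT303. Their part in the level of hsd11b2 was not tested.

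The receptor gene nr3c1 (ENSDARG00000025032) encodes the glucocorticoid receptor, which zebrafish have as a single gene. It held 823, 755 and 764 counts in 3etv embryos MUT301, MUT302 and MUT303, against 1008, 1454 and 1118 counts in WT embryos. Scaled to library size, this was 41.6, 44.5 and 41.7 CPM in 3etv embryos and 46.4, 56.5 and 48.4 CPM in WT embryos. Every 3etv embryo lay below every WT embryo, with WT embryo WLD302 standing highest. The means were 42.6 ± 1.66 CPM in 3etv embryos and 50.4 ± 5.38 CPM in WT embryos (SD, n = 3 each). The log2 fold change was -0.25 ± 0.0968 (SE), a ratio of 0.844 with a 95% interval from 0.730 to 0.975. The unadjusted p was 0.0251 and the adjusted p was 0.0790 in edgeR's quasi-likelihood test, so nr3c1 was not called.

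That value sat near the threshold, and 2 of 13 alternatives put it under 0.05. With libraries scaled by their totals alone, the log2 fold change was -0.32 and nr3c1 was called (edgeR adjusted p = 0.0316). Without WT embryo WLD301, the lowest of the WT embryos, it was -0.30 (edgeR adjusted p = 0.0495). Without WT embryo WLD302 it was -0.16 (edgeR adjusted p = 0.243). Over all 13 alternatives the direction was the same in each, and the adjusted p ran from 0.0316 to 0.243.

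**Figure D3:**
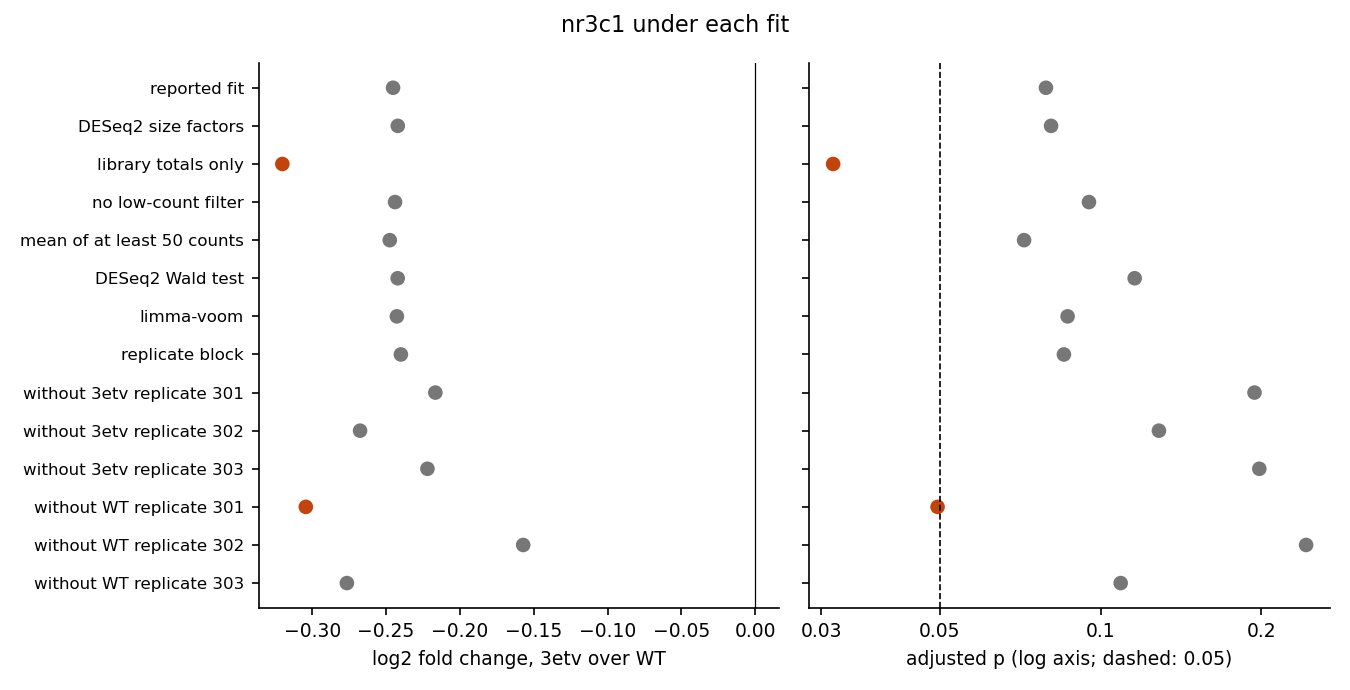
Log2 fold change of nr3c1, 3etv over WT (left, linear axis), and its adjusted p (right, log axis) under the reported fit and each of 13 alternatives. All 14 log2 fold changes are below 0; 2 alternatives, in red, fall under the dashed threshold of 0.05.

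The related receptor gene nr3c2 encodes the mineralocorticoid receptor, which also binds cortisol. It was at 1.21, 1.36 and 1.31 CPM in 3etv embryos and 2.03, 1.36 and 0.952 CPM in WT embryos, with a log2 fold change of -0.16 ± 0.327 (SE, edgeR adjusted p = 0.761). Its WT embryos spanned the 3etv values.

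Among the 16 genes of the corticosteroid receptors, their chaperones and coactivators, all tested, 2 were called higher and 3 lower, and with library totals alone the numbers were 1 higher and 5 lower. The lower ones were the HSP90 genes hsp90aa1.1 and hsp90aa1.2 and the coactivator gene ncoa1. The transcript of hsp90aa1.1, known in zebrafish for its role in skeletal muscle, averaged 347 ± 74.5 CPM in 3etv embryos and 746 ± 101 CPM in WT embryos (SD, n = 3 each), a log2 fold change of -1.10 ± 0.148 (SE, edgeR adjusted p = 0.000285). For hsp90aa1.2 it was -0.60 ± 0.124 (edgeR adjusted p = 0.00417). The constitutive hsp90ab1, whose product holds nuclear receptors ready for hormone, was not called (log2 fold change 0.17 ± 0.114, edgeR adjusted p = 0.294). The constitutive HSP70 gene hspa8 was at 6960, 7195 and 8004 CPM in 3etv embryos and 5459, 4940 and 5095 CPM in WT embryos, a log2 fold change of 0.52 ± 0.116 (adjusted p in edgeR = 0.00651). The other higher one was ncoa3, also a coactivator gene and named after its values were seen (log2 fold change 0.26 ± 0.0788, edgeR adjusted p = 0.0312). Its call was lost with library totals alone (adjusted p = 0.140) and on leaving out any of the 6 embryos, with adjusted p from 0.0583 to 0.0908. For ncoa1 there was a log2 fold change of -0.41 ± 0.115 (adjusted p in edgeR = 0.0202). That call was lost without 3etv embryo MUT302 or MUT303 or WT embryo WLD303, with adjusted p from 0.0759 to 0.0912.

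The gene fkbp5 (ENSDARG00000028396) encodes an immunophilin co-chaperone that lowers the receptor's affinity for cortisol, and it is itself a widely used glucocorticoid response gene. It was at 2.22, 1.77 and 1.36 CPM in 3etv embryos MUT301, MUT302 and MUT303, against 2.03, 1.98 and 1.73 CPM in WT embryos. The WT values lay inside the 3etv range. The means were 1.78 ± 0.429 CPM in 3etv embryos and 1.91 ± 0.159 CPM in WT embryos (SD, n = 3 each), a log2 fold change of -0.10 ± 0.267 (SE, edgeR adjusted p = 0.823). The ratio had a 95% interval from 0.627 to 1.40. Without 3etv embryo MUT303 the sign turned, with a log2 fold change of 0.07.

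The partner co-chaperone fkbp4, which favours receptor movement to the nucleus, was at 148, 134 and 144 CPM in 3etv embryos and at 157, 158 and 162 CPM in WT embryos, without overlap but not called (log2 fold change -0.16 ± 0.0815, edgeR adjusted p = 0.162). Over the FKBP family, 16 of 17 rows were tested, 1 was called higher and 5 lower. That was 37.5% of those tested, against 26.0% of all tested genes. The number lower was 1 without MUT301 or WLD302, 2 without MUT303 or WLD303, 3 without MUT302 or with limma-voom, and 4 without WLD301. The one higher was fkbp3, a nuclear member (log2 fold change 0.64, edgeR adjusted p = 0.000536). Of the lower ones, fkbp9, a member of the endoplasmic reticulum, changed most (log2 fold change -0.61, edgeR adjusted p = 0.00138), and the calls of fkbp14 and fkbp1b were each lost on leaving out 4 of the 6 embryos in turn, with adjusted p up to 0.146 and 0.137 without WT embryo WLD302 and 3etv embryo MUT302. The remaining lower ones, fkbp7 and fkbp10b, were close to the threshold (edgeR adjusted p = 0.0498 and 0.0395), and leaving out an embryo lost the call of fkbp7 for 5 of the 6 and that of fkbp10b for 4 of the 6. The family as a whole shares a binding fold and not a role in the stress axis.

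The gene tsc22d3 (ENSDARG00000075666) encodes GILZ, the glucocorticoid-induced leucine zipper, which carries part of the anti-inflammatory action of the hormone in mammals. It was at 16.7, 18.4 and 19.2 CPM in 3etv embryos MUT301, MUT302 and MUT303, against 20.3, 17.4 and 12.8 CPM in WT embryos. All 3 3etv embryos lay within the WT range, whose spread was wider. The means were 18.1 ± 1.27 CPM in 3etv embryos and 16.8 ± 3.82 CPM in WT embryos (SD, n = 3 each). The log2 fold change was 0.11 ± 0.153 (SE, edgeR adjusted p = 0.652), and the 95% interval of the ratio ran from 0.855 to 1.35. Without WT embryo WLD303 the log2 fold change was -0.06. The related genes tsc22d1 and tsc22d2 were not called either, with log2 fold changes of 0.17 and 0.03 (edgeR adjusted p = 0.179 and 0.872).

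The gene klf9 (ENSDARG00000068194) encodes a Krüppel-like transcription factor that responds quickly to glucocorticoids and also to thyroid hormone. It had 6, 9 and 6 counts in 3etv embryos and 3, 13 and 5 in WT embryos, 21 counts in each group. WT embryo WLD302 was the highest and WT embryo WLD301 the lowest of the 6 in counts. Summed over each group this was 0.381 CPM in 3etv embryos, with an exact Poisson 95% interval from 0.236 to 0.583, and 0.298 CPM in WT embryos, from 0.184 to 0.455. In the fit without a low-count filter the log2 fold change was 0.38, with a 95% interval from -0.89 to 1.65 (edgeR adjusted p = 0.714).

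Of 18 Krüppel-like factor rows, 16 were tested, 1 was called higher and 1 lower. The lower one was klf15, known in mammals as a direct glucocorticoid response gene, at 9.09, 7.84 and 7.04 CPM in 3etv embryos and 11.7, 16.2 and 11.6 CPM in WT embryos (log2 fold change -0.72 ± 0.166, edgeR adjusted p = 0.00752). The higher one was klf11a (log2 fold change 0.83 ± 0.201, edgeR adjusted p = 0.0101). Of the thyroid hormone axis, 5 of 9 rows were tested and 2 were called higher. One was thrb, a thyroid hormone receptor (log2 fold change 0.39 ± 0.110, edgeR adjusted p = 0.0215), whose call was lost with library totals alone (adjusted p = 0.0650) and without 3etv embryo MUT302 or MUT303 or WT embryo WLD301 or WLD303, with adjusted p up to 0.0675. The other was dio1, a deiodinase named after its values were seen, with 23, 19 and 22 counts in 3etv embryos and 13, 10 and 1 counts in WT embryos (edgeR adjusted p = 0.0261). The dio1 call was lost on leaving out each embryo except WLD301, with adjusted p from 0.0550 to 0.0627. Without MUT302, MUT303 or WLD303 no gene of this list was called.

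The 3 response genes among the members were set beside a wider list of 36 genes drawn up as glucocorticoid response genes, which includes them. The list left out klf15, and whether each of its genes responds to glucocorticoids in these embryos was not tested. Of the 36, 32 were tested, 7 were called higher and 7 lower in 3etv embryos, and the list median was -0.04 on the log2 scale. Those called were 43.8% of those tested, against 26.0% of all tested genes, and this difference was not tested. As the list was chosen with earlier results of these data known, the share is a description only. None of the 14 was fkbp5 or tsc22d3, and klf9 was not tested. In the reported fit the list's called genes went both ways in equal number. Over the alternatives, 6 or 7 were higher and 6 to 8 lower. Many of its genes respond to other signals as well, such as light, fasting, low oxygen or cytokines.

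Among the lower ones, per1b, a light- and clock-controlled period gene, fell to 8.08, 10.7 and 11.7 CPM in 3etv embryos, against 38.6, 41.6 and 40.5 CPM in WT embryos. Its log2 fold change was -1.99 ± 0.130 (SE, edgeR adjusted p = 1.27e-06). The gluconeogenic gene pck1 averaged 0.767 ± 0.270 CPM in 3etv embryos and 2.36 ± 0.745 CPM in WT embryos (SD, n = 3 each), a log2 fold change of -1.59 ± 0.349 (adjusted p in edgeR = 0.00575). The metallothionein gene mt2 and the glutamine synthetase gene glula, both named after their values were seen, had log2 fold changes of -1.05 ± 0.238 and -0.81 ± 0.0908 (edgeR adjusted p = 0.00684 and 8.72e-05). The other glutamine synthetase gene of the list, glulb, also named after its values were seen, was called higher. It averaged 345 CPM in 3etv embryos and 276 CPM in WT embryos (log2 fold change 0.32 ± 0.0811, edgeR adjusted p = 0.0124).

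Among the higher ones, socs3a, a feedback inhibitor of cytokine signalling, was at 2.17, 4.48 and 3.17 CPM in 3etv embryos and 1.01, 0.856 and 0.909 CPM in WT embryos, a log2 fold change of 1.81 ± 0.308 (SE, edgeR adjusted p = 0.00135). The gene ddit4, an inhibitor of the growth kinase mTORC1, was at 83.7, 30.8 and 48.1 CPM in 3etv embryos and 23.1, 17.7 and 22.3 CPM in WT embryos. The groups did not overlap, 3etv embryo MUT301 stood well above the others, and the log2 fold change was 1.37 ± 0.263 (adjusted p in edgeR = 0.00282), or 0.92 without that embryo (adjusted p = 0.00437). The phosphatase gene dusp1, named after its values were seen, rose by 0.55 ± 0.0960 on the log2 scale (edgeR adjusted p = 0.00155).

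**Figure D4:**
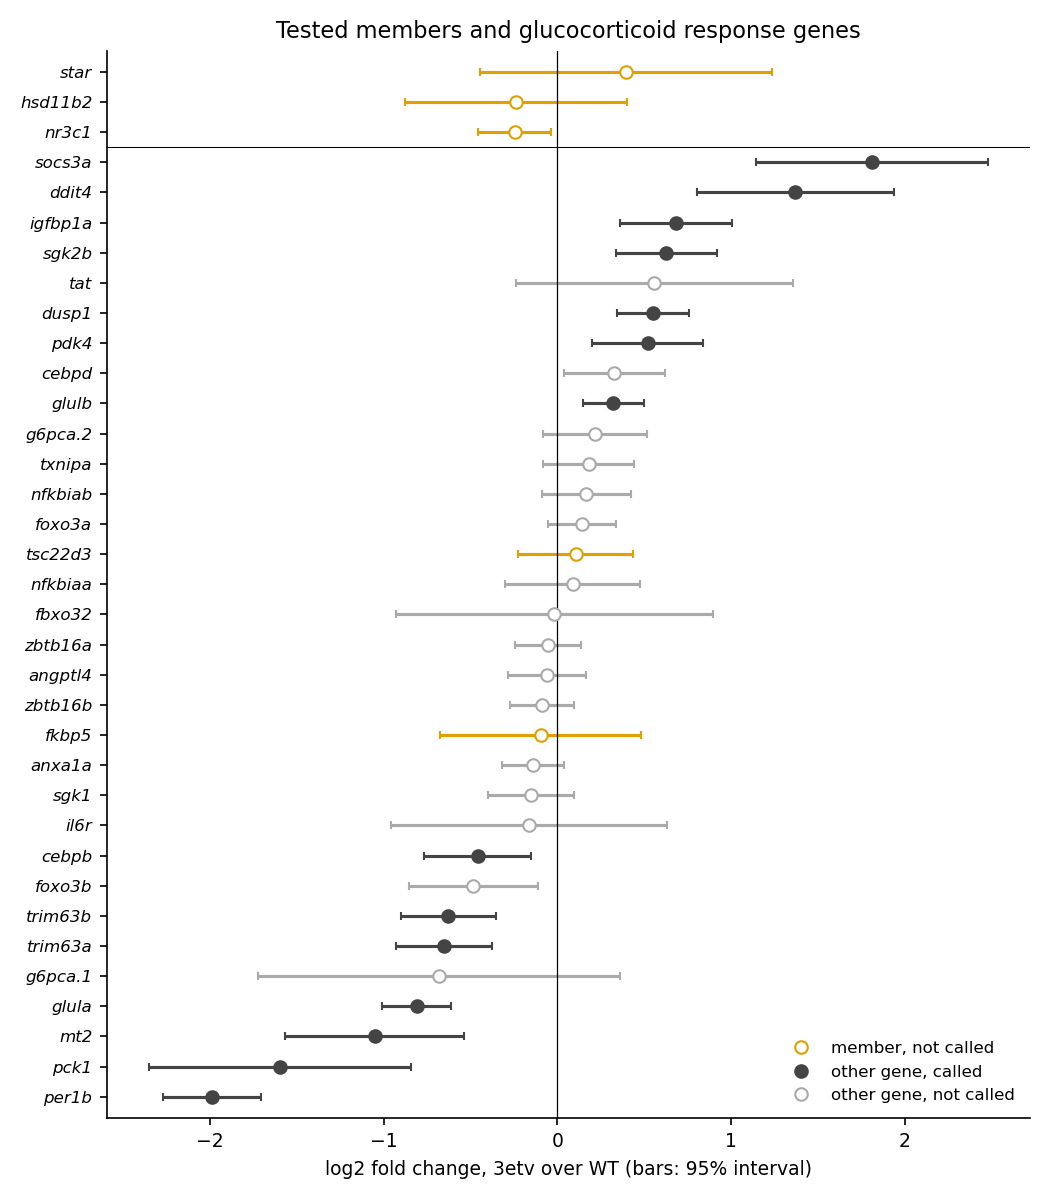
Log2 fold change, 3etv over WT, with 95% intervals of the 32 tested glucocorticoid response genes, sorted by value, and, above the line, of the 3 other tested members. Filled points are called. The 5 members, in gold, lie between -0.25 and 0.40, while the other called genes reach from -1.99 (per1b) to 1.81 (socs3a).

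Because per1a and per1b belong to the clock as well, circadian genes are given beside them. Of 24 rows, 22 were tested, 2 were called higher and 7 lower, with a list median of -0.23 on the log2 scale. That was 40.9% of those tested, against 26.0% of all tested genes. The 7 lower became 4 without MUT301 or MUT302 and 5 without any one of the other embryos, while the 2 higher stayed at 2. The lower ones included tefb, a clock output factor (means of 3.82 CPM in 3etv embryos and 7.67 CPM in WT embryos, edgeR adjusted p = 0.00133), and clockb, a core activator (log2 fold change -0.60, edgeR adjusted p = 0.00305). The higher ones included cry3a, a cryptochrome (log2 fold change 0.65, edgeR adjusted p = 0.000483). The hour of collection and the light schedule are not given in the sources used here. Glucocorticoids also act on white blood cells, and none of 7 tested white blood cell markers was called, with summed levels of 25.2 to 26.9 CPM in 3etv embryos and 26.2 to 30.9 CPM in WT embryos.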

How the data were processed

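Single 30 hpf embryos were frozen, and DNase-treated RNA went into poly-A selected, strand-specific libraries, per the labels' protocols. The submitters' processing notes name STAR, HTSeq and the build GRCz11. Tool versions, the annotation and whether counting used strand are not given in the sources used here. The deposited table holds the authors' raw counts per Ensembl gene; summary lines on reads outside genes were left out. A space in place of a tab in its header, between MUT302 and MUT303, was split, and all 6 columns were matched by title.

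Counts were analysed in R 4.3.3 with edgeR 4.0.16: filterByExpr (at least 10 counts in the median library, 0.486 CPM, in 3 libraries), TMM scaling, and the quasi-likelihood test of genotype over 19889 genes, with Benjamini-Hochberg adjustment. CPM use TMM-scaled totals. SE is the log2 fold change over the root of F; 95% intervals follow from it. The tests were checked on simulated counts. Alternatives used limma 3.58.1 (voom) and DESeq2 1.42.0, other scalings and filters, a replicate block, and each embryo left out.

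The members and gene lists were chosen with earlier results of these data known. Named were the members and, per list, the 4 called genes of largest change with a mean of at least 20 counts; genes of the members' families are mostly given as counts. Other genes were named after their values were seen. The rule for genes most alike a called member named none, as no member was called. Of the 8 member IDs, 7 have the same symbol in the reference table of names, and that of crhb does not. In the RefSeq table of another assembly, GRCz12tu, the spans of mc2r, star, hsd11b2 and fkbp5 overlap another gene, so their counts may be affected by how overlaps were counted. No sequences are shown.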

Additional observations from a re-analysis of the deposited data

How the results depend on the processing

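The number of members called was 0 and became 1, nr3c1 lower in 3etv embryos, with library totals only; with each embryo left out in turn it ran from 0 to 1, the 1 being nr3c1 without WT embryo WLD301. No member was called higher in any setting. The cause was not tested. Over the alternatives (13, but 12 for star and fkbp5) the log2 fold change of star ran from 0.17 to 0.74, and those of hsd11b2 (-0.50 to 0.02), fkbp5 (-0.28 to 0.07) and tsc22d3 (-0.06 to 0.26) crossed 0 without a call; star and fkbp5 have no value with a mean of at least 50 counts. The number of glucocorticoid response genes called ran from 12 to 15. Across the table, 2502 genes were higher, from 1643 to 2266 with an embryo left out, the lowest without WT embryo WLD303. With library totals only, 34.2% in place of 48.3% of calls were higher and the median log2 fold change was -0.08. The embryos' shared numbers gave no sign of pairing (correlations of deviations -0.0694, 0.0856 and -0.111); with the replicate block, nr3c1 stood at -0.24 on the log2 scale (edgeR adjusted p = 0.0854) and 2227 genes were higher and 2496 lower; it lost the call of ncoa3 (edgeR adjusted p = 0.0562) and left 4 in place of 7 clock genes lower. Depth limits crhb, mc2r, klf9 and star: with 0 to 23 counts per library, changes short of severalfold could not be detected for the first 3.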

Other observations

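Within the WT embryos, 4 members shared an order of levels: embryo WLD301 was highest and embryo WLD303 lowest for star (1.06 and 0.519 CPM), hsd11b2 (3.64 and 1.64 CPM), fkbp5 (2.03 and 1.73 CPM) and tsc22d3 (20.3 and 12.8 CPM). Among the 3etv embryos these 4 had no common order: embryo MUT303 was highest for star (1.26 CPM) and tsc22d3 (19.2 CPM) and lowest for hsd11b2 (1.80 CPM) and fkbp5 (1.36 CPM). In WT embryos nr3c1 and klf9 had another order, with embryo WLD302 highest (56.5 and 0.506 CPM) and embryo WLD301 lowest (46.4 and 0.138 CPM). The members crhb and mc2r had too few counts to order. The order shared by the 4 members was noticed in the data and was not tested. How many of all genes had the same order was not determined, so it cannot be read as particular to these members.

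The steroid 17-hydroxylase paralog cyp17a2, below the low-count filter, had 7, 7 and 10 counts in 3etv embryos and 0, 1 and 1 in WT embryos. Against a floor of 3 counts per library it was at least 3.41-fold higher in 3etv embryos, opposite in direction to cyp17a1. The corticotrope lineage factor tbx19, also below the filter, had 8, 5 and 5 counts in 3etv embryos and 3, 3 and 1 in WT embryos. Its counts lay close to that floor, and no fold is given for it. Neither gene was tested in the reported fit, and both were chosen after their values were seen.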
